A study of Schizosaccharomyces pombe with 6 samples.

Results

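The spliceosome proteins of the fission yeast Schizosaccharomyces pombe were taken as the genes whose array symbol is a cwf, prp, lsm or usp name with a number, a sap name with a number of 2 or 3 digits, or one of the Sm names smb1, smd1, smd2, smd3, sme1, smf1 and smg1. This rule found 69 genes among 2896 S. pombe genes that could be read from the array without sharing a probe set with another gene. It uses names and no measured value. In RefSeq, 3 of them carry another symbol, prp40 for usp104, prp39 for usp105 and luc7 for usp106. A further 4 RefSeq genes whose symbol fits the rule were not analysed here.

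The spliceosome is the ribonucleoprotein machine that cuts introns out of pre-mRNA. The U1 particle recognises the start of an intron, U2 with its SF3 proteins and U2AF recognises the branch point and the intron's end, and the U4/U6.U5 tri-snRNP then joins. Helicases remodel the complex, with proteins that travel with Cdc5 (the Prp19 complex and its partners, named cwf in S. pombe) shaping its catalytic core. Rings of Sm proteins sit on U1, U2, U4 and U5 RNA, and a ring of LSm proteins sits on U6 RNA. Many S. pombe genes carry introns, and the machine was dissected genetically in this yeast through its prp mutants.

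The arrays measured total RNA from mixtures of 2 haploid strains of opposite mating type, h+ YHL6381 (P cells) and h- SPQ-01 (M cells). Each strain was grown separately at 30 °C in YEPD, a rich glucose medium, until its OD600 reached 5.0. Equal parts were then combined and kept for 90 min in new YEPD or in YEPME. The design text describes the mixtures as flocculated in YEPME and not flocculated in YEPD. There are 3 arrays a medium, called biological replicates 1 to 3 in the labels, and nothing further says that they came from separate cultures, so p-values measure only the spread between these arrays. The design text and the sample labels attach the sample codes to the media in opposite ways, and the strain label of the YEPME samples reads diploid. Groups here follow the medium given for each sample, and all signs of differences between media would turn if the codes of the design text held. The values are log2 signals after RMA. It removes background, brings arrays that are processed together to a common distribution and gives 1 value for each set of probes. A value cannot be compared between probe sets.

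The 2 replicate 1 arrays stand apart from the other 4. Over the 2896 genes they correlated with each other at 0.975, the other 4 among themselves at 0.994 to 0.999, and pairs across at 0.884 to 0.920. Each member was above the 95th percentile of the S. cerevisiae probe sets, used as a limit of background, on all 6 arrays (97.5% of all genes). Marker genes of both cell types were also above that limit on all 6 arrays, 5 of 5 for P cells and 7 of 7 for M cells. In these mixtures, fewer cells of a type and less RNA per cell cannot be told apart.

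Spliceosome transcripts differed little between YEPD and YEPME. With limma on all 6 arrays and no block, 0 of the 69 members passed at an adjusted p under 0.05, as did 0 of all genes (0%), and 0 members had an unadjusted p under 0.05, against 32 of all genes (1.10%). With replicate 1 set as a block against replicates 2 and 3, limma again called 0 members, against 60 genes (2.07%), and 11 members had an unadjusted p under 0.05, against 478 genes (16.5%). Of these 11, 3 were above 0 (7.49% of all genes) and 8 below (9.01% of all genes). The lowest adjusted p of a member in that fit was 0.0766, for the helicase gene prp43. The 95% interval of the difference in that fit lay within 1.5-fold either way for 68 of the 69 members, and for 88.5% of all genes. The exception was lsm8, whose interval ran from -0.11 to 0.66. With the replicate number as a block, 0 members and 0 genes passed limma, and 3 members had an unadjusted p under 0.05 against 317 genes (10.9%).

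No member differed 2-fold in any pair of arrays with the same replicate number, against 3.31% of all genes, and 3 members differed at least 1.5-fold in a pair, against 12.1%. These were lsm8, cwf21 and sap62, each in replicate 1. The median difference of the members, YEPME minus YEPD, was -0.06, -0.00 and -0.05 on the log2 scale in replicates 1, 2 and 3, beside -0.04, 0.00 and 0.00 for all genes. The median size of the difference, without its sign, was 0.17, 0.06 and 0.09 in the members and 0.20, 0.08 and 0.09 in all genes. YEPME was the lower array for 41 members in replicate 1 (55.6% of all genes), 36 in replicate 2 (48.5%) and 49 in replicate 3 (49.6%). Lower values in YEPME in all 3 pairs were seen for 22 members (31.9%; 20.2% of all genes), and higher values in all 3 for 9 (13.0%; 16.7% of all genes). The Cdc5-associated group held 11 of the 22. The arrays of the 2 media did not overlap for 5 members, with smb1, usp108 and sap62 above (2.76% of all genes) and usp101 and prp38 below (2.94% of all genes).

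**Figure D1:**
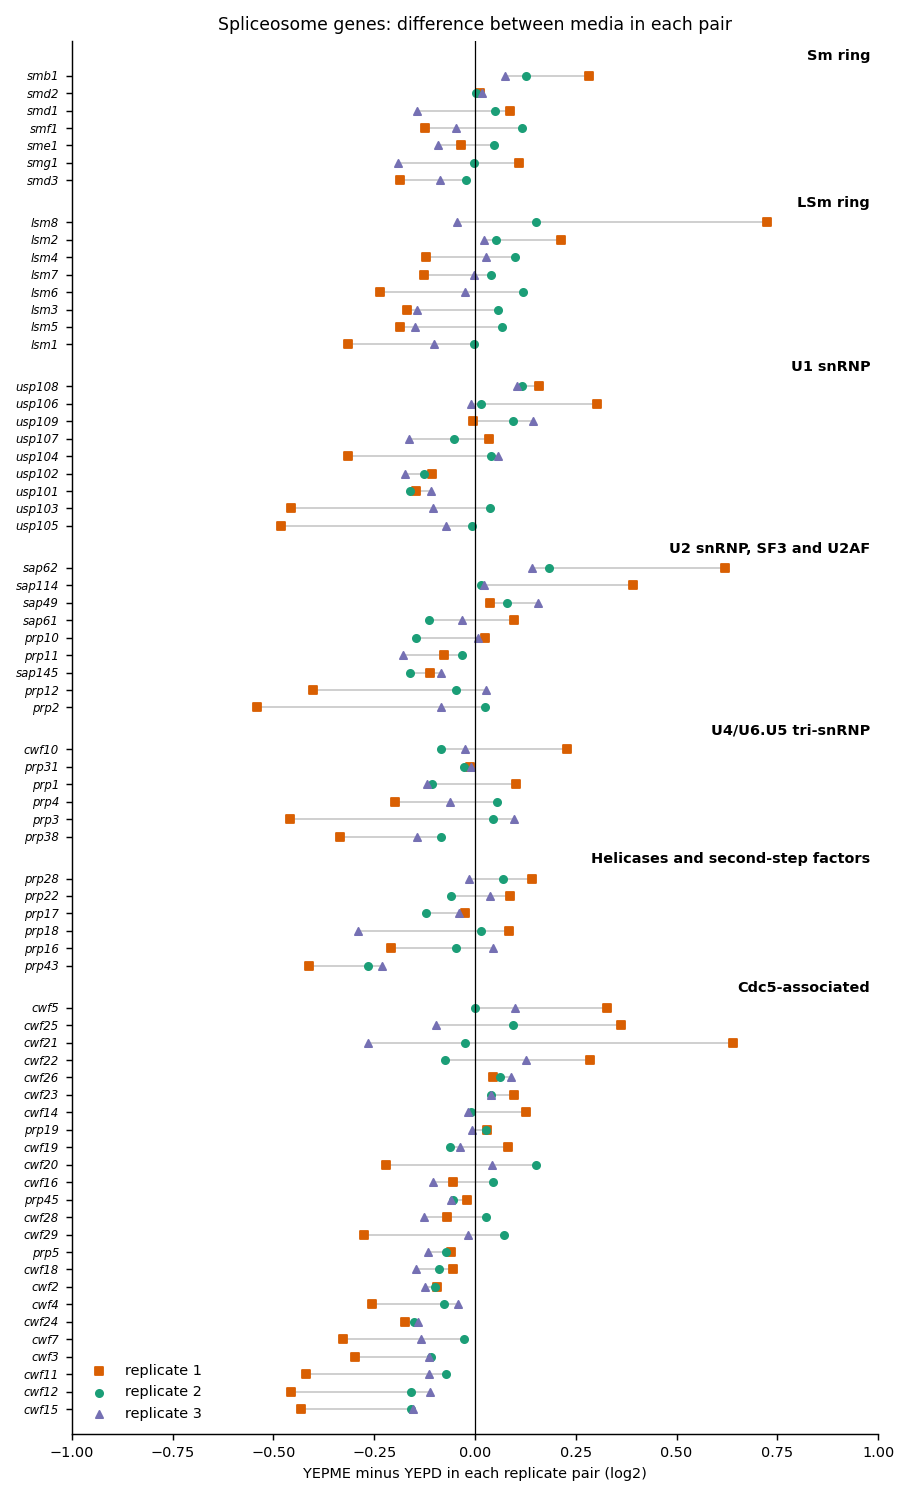
YEPME minus YEPD difference on the log2 scale (horizontal axis) of each of the 69 members (vertical axis), by role; squares, circles and triangles are replicates 1, 2 and 3, and a grey line joins the 3 pairs of a gene. Replicate 1 gives the widest differences, from -0.54 for prp2 to 0.72 for lsm8, while single pairs of replicates 2 and 3 lie between -0.29 and 0.18.

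Within the 4 arrays of replicates 2 and 3, limma called 3 members (4.35%), against 452 of all genes (15.6%). sap62 was higher in YEPME (6.91% of all genes), and prp43 and cwf15 were lower (8.70% of all genes). An unadjusted p under 0.05 was reached by 17 members, against 34.3% of all genes, 3 of them higher (17.5% of all genes) and 14 lower (16.8% of all genes). The 95% intervals of all 69 members lay within 1.5-fold there, and those of 65 within 1.25-fold, against 96.3% and 83.2% of all genes. The 4 that reached beyond 1.25-fold were prp43, prp18, cwf21 and cwf23. With the replicate number as a block within these 4 arrays, limma called 7 members (24.0% of all genes), 1 higher (11.3% of all genes) and 6 lower (12.7% of all genes). They are the same 3 with usp101, usp102, cwf12 and cwf24, each of these lower in YEPME. Leaving out 1 of the 4 arrays leaves 1 array in a medium, so only differences are given. Without YEPD replicate 2 and without YEPD replicate 3 they were -0.25 and -0.25 for prp43, 0.16 and 0.17 for sap62 and -0.14 and -0.18 for cwf15. Without YEPME replicate 2 and without YEPME replicate 3 they were -0.23 and -0.27 for prp43, 0.15 and 0.18 for sap62 and -0.17 and -0.14 for cwf15. Calls were lost among the members and over all genes alike when either YEPD array was left out.

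**Figure D2:**
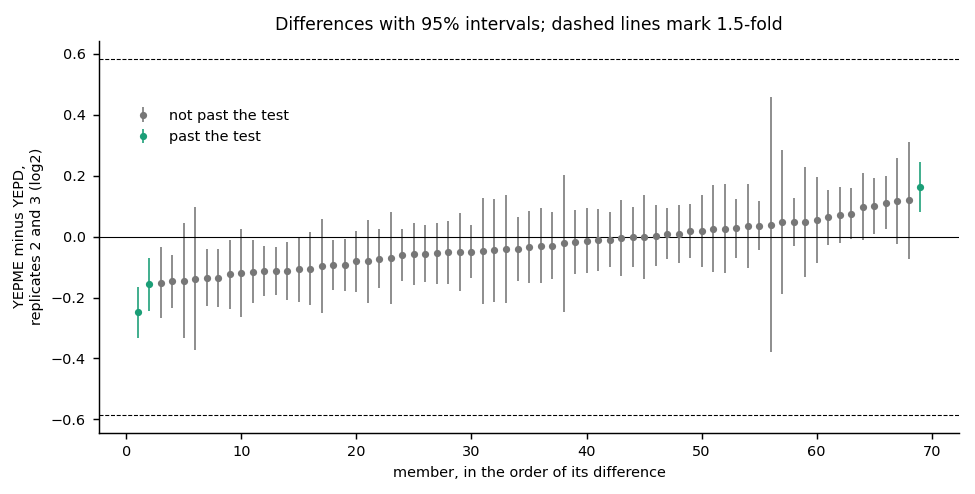
YEPME minus YEPD difference within replicates 2 and 3 (vertical axis, log2) of the 69 members in order of size (horizontal axis); bars are 95% intervals from limma on 4 arrays and dashed lines mark 1.5-fold. No interval reaches a dashed line, and the 3 members past the test, in green, lie at -0.25, -0.16 and 0.16.

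prp43 (SPBC16H5.10C) encodes the DEAH-box helicase that takes the spent spliceosome apart and frees the intron lariat, and which in S. cerevisiae also works in ribosome assembly. Its log2 values in YEPD were 9.67, 11.07 and 11.07 in replicates 1, 2 and 3, and those in YEPME 9.26, 10.80 and 10.84. Within each pair the YEPME array was the lower, while the 2 replicate 1 arrays lay far below the other 4, so that the media overlap over all arrays. The pair differences were -0.41, -0.27 and -0.23, and prp43 was the 1 member at least 0.2 apart in the same direction in all 3. Within replicates 2 and 3 it fell by 0.25 ± 0.03 (SE, limma, adjusted p = 0.0122, n = 2 arrays per medium), with a 95% interval of -0.33 to -0.16. Over all 6 arrays with replicate 1 as a block the difference was -0.30 ± 0.05 (limma, adjusted p = 0.0766).

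Of the other helicases and second-step factors, 0 of 5 passed any of the limma tests of a difference between media. prp16 and prp22, for helicases that act around the later chemical step and at mRNA release, differed by -0.21, -0.05 and 0.04 and by 0.09, -0.06 and 0.04 in the 3 pairs. prp28, for the helicase that displaces U1, differed by 0.14, 0.07 and -0.02. The WD-repeat factor gene prp17 differed by -0.03, -0.12 and -0.04, and prp18, for a factor of the later step, by 0.08, 0.01 and -0.29. Of these 5, prp17 alone had the same sign in all pairs.

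Among the genes of U2, the SF3 complexes and U2AF, sap62 rose. sap62 (SPBC21C3.05), for a subunit of SF3a, had 8.58, 8.43 and 8.44 in YEPD and 9.20, 8.61 and 8.58 in YEPME. The YEPME values lie above all YEPD values, though YEPME replicate 3 clears YEPD replicate 1 by less than the printed digits show. The rise within replicates 2 and 3 was 0.16 ± 0.03 (limma, adjusted p = 0.0340, n = 2 arrays per medium), and in replicate 1 the difference was 0.62, past the interaction test described below (adjusted p = 0.00442). With replicate 1 as a block the difference was 0.32 ± 0.10 (limma, adjusted p = 0.239). A further SF3a gene, sap114 (SPAC22A12.09C), had 9.85, 9.85 and 9.92 in YEPD and 10.24, 9.86 and 9.94 in YEPME, so that the YEPME replicate 1 array alone stands out. The SF3a gene sap61 differed by 0.10, -0.11 and -0.03, so the 3 genes of this complex did not share a direction in replicates 2 and 3.

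The SF3b genes gave smaller or mixed differences. prp10 (SPAC27F1.09C), for the large SF3b subunit that clamps the branch point, had 10.91, 11.09 and 11.09 in YEPD and 10.94, 10.94 and 11.10 in YEPME, and the media overlap. prp12 (SPAPJ698.03C), for another large SF3b subunit, had 10.18, 10.34 and 10.32 in YEPD and 9.78, 10.29 and 10.34 in YEPME, with YEPME replicate 1 the low array. sap49 and sap145 differed by 0.04, 0.08 and 0.16 and by -0.11, -0.16 and -0.08, each with a single sign and neither past a test. prp2 (SPBC146.07), for the large U2AF subunit, had 10.25, 10.70 and 10.72 in YEPD and 9.71, 10.72 and 10.63 in YEPME, and prp11, for the helicase that helps U2 bind, differed by -0.08, -0.03 and -0.18. The prp2 value on the YEPME replicate 1 array is the lowest of its 6, and the 4 arrays of replicates 2 and 3 lie together.

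cwf15 fell within replicates 2 and 3, and was the 1 gene of the 24 in the Cdc5-associated group to pass there without a block (15.6% of all genes). cwf15 (SPBC337.06C), a core protein of the active spliceosome, had 9.87, 10.20 and 10.16 in YEPD and 9.44, 10.04 and 10.01 in YEPME. The YEPME array is the lower in each pair, but YEPD replicate 1 lies below YEPME replicates 2 and 3. Within replicates 2 and 3 it fell by 0.16 ± 0.03 (limma, adjusted p = 0.0438), and replicate 1 gave -0.43. With each array centred on its median the adjusted limma p was 0.0599, and with replicate 1 as a block 0.206.

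Several partners of cwf15 in that group had negative differences in all pairs, small ones in replicates 2 and 3. cwf12 (SPBC32F12.05C), the counterpart of Isy1, had 9.38, 9.71 and 9.65 in YEPD and 8.92, 9.55 and 9.54 in YEPME. cwf11 (SPBC646.02), the counterpart of the human helicase-like protein Aquarius, had 10.53, 10.72 and 10.76 in YEPD and 10.11, 10.64 and 10.64 in YEPME. In both genes YEPME replicate 1 is the lowest array and YEPD replicate 1 lies below YEPME replicates 2 and 3. Both were among the members past the interaction test described below. The scaffold genes cwf3 and cwf4, counterparts of Syf1 and Clf1, differed by -0.30, -0.11 and -0.11 and by -0.26, -0.08 and -0.04. cwf24, for a zinc finger protein that joins before catalysis, differed by -0.17, -0.15 and -0.14, and cwf2, for an RNA-binding protein near the catalytic centre, by -0.09, -0.10 and -0.13. The other members of the 11 lower in all pairs were cwf7, cwf18, prp5, prp45 and cwf15 itself. Within replicates 2 and 3, cwf15 alone of these 11 passed limma without a block, and cwf12 (adjusted p = 0.0482) and cwf24 (0.0335) also passed once the replicate number was a block.

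Other Cdc5-associated genes did not share that direction. prp19 (SPAC29A4.08C), for the ubiquitin ligase that gives the complex its name, had 11.39, 11.29 and 11.29 in YEPD and 11.42, 11.32 and 11.28 in YEPME, and its 95% interval within replicates 2 and 3 ran from -0.07 to 0.09. cwf21 (SPAC4A8.09C), the counterpart of S. cerevisiae Cwc21, had 10.65, 9.72 and 9.76 in YEPD and 11.29, 9.70 and 9.49 in YEPME. Both replicate 1 arrays of cwf21 lie above the other 4, YEPME the higher, whereas in replicate 3 YEPME is the lower. cwf25 (SPBC146.05C), for a factor of the branching reaction, had 9.76, 9.99 and 10.06 in YEPD and 10.12, 10.08 and 9.97 in YEPME, and the media overlap. cwf26 and cwf29, for proteins of the RES complex that retains and splices pre-mRNA, differed by 0.04, 0.06 and 0.09 and by -0.28, 0.07 and -0.02. The other 8 genes of the group were cwf5, cwf14, cwf16, cwf19, cwf20, cwf22, cwf23 and cwf28. They differed by -0.22 to 0.33 in replicate 1 and passed no test within replicates 2 and 3, where 15.6% of all genes passed without a block.

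**Figure D3:**
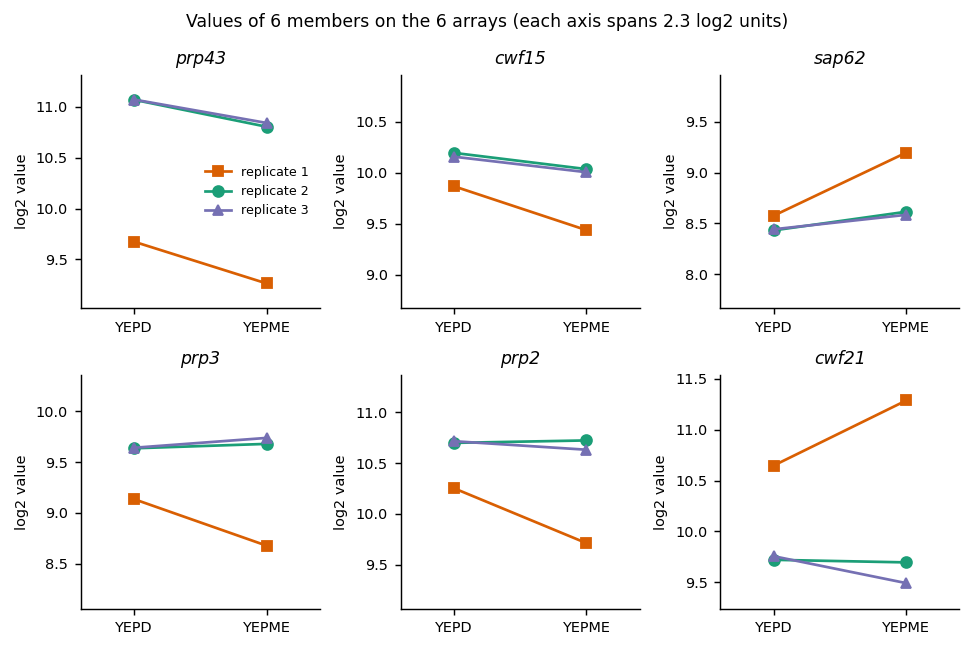
Log2 values (vertical axis, each panel spanning the same range) of 6 members in YEPD and YEPME (horizontal axis); each line joins the arrays of 1 replicate. prp43 and cwf15 slope down and sap62 slopes up in each pair, while prp3, prp2 and cwf21 slope in replicate 1 and differ by -0.26 to 0.10 in the other pairs.

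Of the 6 U4/U6.U5 tri-snRNP genes, 0 were called within replicates 2 and 3, against 15.6% of all genes. prp3 (SPAC29E6.02), for a U4/U6 protein, had 9.14, 9.64 and 9.64 in YEPD and 8.68, 9.68 and 9.74 in YEPME, so that YEPME is lower in replicate 1 and higher in the other pairs. cwf10 (SPBC215.12), for the U5 GTPase known as Snu114 elsewhere, had 11.11, 11.02 and 11.03 in YEPD and 11.34, 10.93 and 11.01 in YEPME. prp1 (SPBC6B1.07), for the protein that bridges U5 and U4/U6, had 10.03, 10.16 and 10.19 in YEPD and 10.14, 10.06 and 10.07 in YEPME. For cwf10 and prp1 the sign also turns between replicate 1 and the other pairs, the opposite way from prp3.

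prp38 (SPBC19C2.08), for a factor needed to activate the assembled spliceosome, had 9.65, 9.46 and 9.54 in YEPD and 9.31, 9.37 and 9.39 in YEPME. All YEPME values lie below all YEPD values, but the difference of -0.19 ± 0.06 with replicate 1 as a block did not pass limma (adjusted p = 0.249). prp31, for a U4/U6 protein, differed by -0.01, -0.03 and -0.01, and prp4, for the spliceosomal protein kinase, by -0.20, 0.05 and -0.06.

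Of the 9 U1 genes, 0 passed within replicates 2 and 3 without a block (15.6% of all genes). With the replicate number as a block 2 passed, usp101 and usp102 (24.0% of all genes). usp103 (SPBP35G2.09), for the U1 subunit that steadies pairing with the intron's start, had 10.10, 9.64 and 9.74 in YEPD and 9.65, 9.68 and 9.63 in YEPME, with YEPD replicate 1 the high array. usp104 (SPAC4D7.13), the counterpart of Prp40, had 11.27, 11.31 and 11.29 in YEPD and 10.95, 11.35 and 11.35 in YEPME. usp105 (SPBC4B4.09), the counterpart of Prp39, had 11.33, 11.49 and 11.48 in YEPD and 10.85, 11.49 and 11.40 in YEPME. For both of these the YEPME replicate 1 array lies well below the other 5, which lie close together. usp106 (SPCC16A11.13), the counterpart of Luc7, had 8.89, 9.57 and 9.53 in YEPD and 9.19, 9.59 and 9.52 in YEPME, with both replicate 1 arrays low.

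The U1 genes whose pairs were most alike had small differences. usp101 and usp102, for the RNA-binding U1 subunits, differed by -0.15, -0.16 and -0.11 and by -0.11, -0.13 and -0.17, and the adjusted limma p within replicates 2 and 3 was 0.0694 and 0.0874 without a block and 0.0483 and 0.0335 once the replicate number was a block. The U1-associated gene usp108 differed by 0.16, 0.12 and 0.10 (adjusted p = 0.0911), and usp107 and usp109 by 0.04, -0.05 and -0.16 and by -0.00, 0.09 and 0.14. usp108 and usp101, of the same particle, thus had opposite signs in all 3 pairs.

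The Sm and LSm rings showed no call within replicates 2 and 3, in 7 and 8 genes, against 15.6% of all genes. smb1 (SPAC26A3.08), for the SmB protein, had 11.44, 11.55 and 11.61 in YEPD and 11.72, 11.68 and 11.68 in YEPME. The YEPME arrays lie above the YEPD arrays, and the difference with replicate 1 as a block was 0.16 ± 0.06 (limma, adjusted p = 0.265). smd3 (SPBC19C2.14) had 11.78, 12.12 and 12.13 in YEPD and 11.59, 12.10 and 12.04 in YEPME, and the replicate 1 arrays are the lowest in both media. The differences of smd2 were 0.01, 0.00 and 0.02, while smd1, sme1, smf1 and smg1 lay between -0.19 and 0.12 with signs that varied between the pairs.

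Within the LSm ring, lsm7 (SPCC285.12) had 12.12, 11.85 and 11.85 in YEPD and 12.00, 11.89 and 11.85 in YEPME, and the media overlap. lsm8 (SPCC1840.10), whose product marks the nuclear ring on U6 RNA, had 5.68, 5.89 and 5.97 in YEPD and 6.41, 6.04 and 5.93 in YEPME. Its YEPD value in replicate 1 lies close to the limit of background there, 5.60, while the limits for replicates 2 and 3 ran from 4.78 to 4.81. The gene for its cytoplasmic counterpart lsm1, which works in mRNA decay, differed by -0.32, -0.00 and -0.10. lsm2 differed by 0.21, 0.05 and 0.02, and lsm3, lsm4, lsm5 and lsm6 lay between -0.24 and 0.12 with no sign shared by all pairs.

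The difference between media itself departed between replicate 1 and replicates 2 and 3 for 24 members in a limma interaction test (34.8%), against 46.4% of all genes. In 9 of these the difference was higher in replicate 1 (19.0% of all genes) and in 15 it was lower (27.4% of all genes). The test has 1 array per medium in replicate 1 and assumes that it varies like the others. For 23 of the 24 the absolute difference was larger in replicate 1, as it was for 1203 of the 1344 genes called. Genes both called and larger there made up 33.3% of the members and 41.5% of all genes. Over all members, called or not, the absolute difference was larger in replicate 1 for 53 (76.8%; 76.9% of all genes). The count of members called fell when YEPD replicate 2 or YEPD replicate 3 was left out, and so did the count over all genes. Such a fit has 1 YEPD array at each replicate level. By role, 10 of 24 Cdc5-associated, 4 of 9 U1, 4 of 9 U2, 3 of 8 LSm, 3 of 6 tri-snRNP, 0 of 7 Sm and 0 of 6 helicase and second-step genes were called.

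The lowest adjusted p among the members was that of prp3, whose difference was 0.53 ± 0.06 (SE) lower in replicate 1 than in the mean of replicates 2 and 3 (limma interaction, adjusted p = 0.00407). The departure was -0.51 ± 0.07 for prp2 (adjusted p = 0.00695), -0.44 ± 0.07 for usp105 (0.00892), -0.42 ± 0.08 for usp103 (0.0138), -0.39 ± 0.06 for prp12 (0.00852) and -0.36 ± 0.05 for usp104 (0.00731). On the other side it was 0.79 ± 0.13 for cwf21 (adjusted p = 0.00927), 0.67 ± 0.09 for lsm8 (0.00645), 0.37 ± 0.08 for sap114 (0.0191) and 0.36 ± 0.09 for cwf25 (0.0310). prp43 was not among the 24 (-0.16 ± 0.06, adjusted p = 0.0688). M cell marker genes moved in replicate 1 too, with 6 of 7 lower in YEPME there, against 2 and 0 of 7 in replicates 2 and 3. Their summed signal, as the log2 of the linear sum, was 13.62 in YEPD replicate 1 and 12.01 in YEPME replicate 1. It was 11.20 and 11.19 in the other YEPD arrays and 11.61 and 11.57 in the other YEPME arrays. In YEPD replicate 1 most of the sum came from mfm2, at 13.10 there and 10.68 in YEPME replicate 1. In the same pair mam3 went the other way, from 9.32 to 9.68. The summed signal of the 5 P cell markers was 12.40 to 12.63 in YEPD and 12.59 to 12.68 in YEPME. Most of it came from sxa1, at 12.09 to 12.29. By gene, 1 of the 5 was lower in YEPME in replicate 1, and 0 of 5 in each of replicates 2 and 3. None of the 12 markers fell below the background limit on any array, and their part in the departures was not tested.

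**Figure D4:**
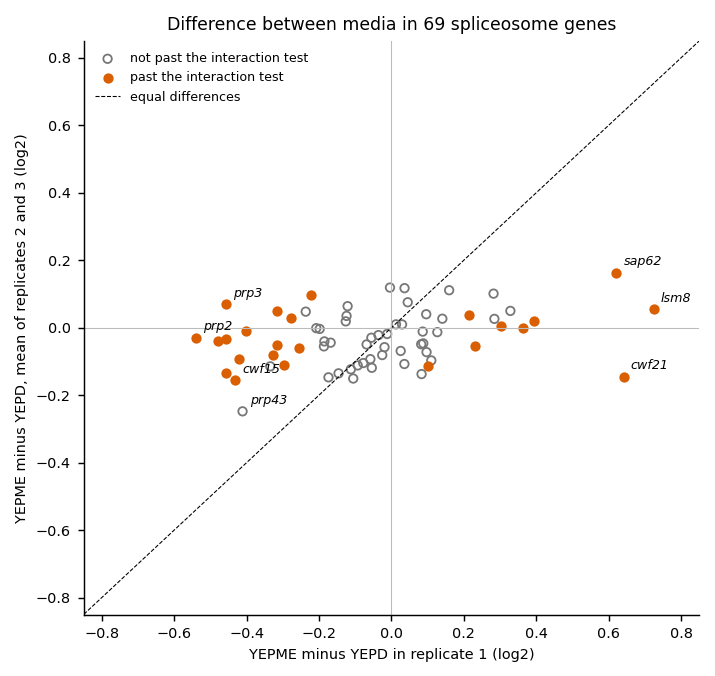
YEPME minus YEPD difference in replicate 1 (horizontal axis, log2) against the mean difference in replicates 2 and 3 (vertical axis, log2) for the 69 members; filled points are the 24 past the interaction test and the dashed line marks equal differences. The points spread from -0.54 to 0.72 across and from -0.25 to 0.16 upward, and prp43 lies nearer the dashed line than prp3, prp2 or cwf21.

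The level of the members also differed between replicate 1 and the other 2 replicates, in both media. This is not a condition of the study. limma with medium as the other term called 42 members (60.9%; 71.0% of all genes), 12 higher in replicate 1 (35.0% of all genes) and 30 lower (36.0% of all genes). The median of the members was -0.13, beside -0.00 for all genes. A difference of at least 2-fold was found in 3 members, against 15.2% of all genes, 1 higher (7.01% of all genes) and 2 lower (8.15% of all genes). They were chosen after their values were seen. prp4 (SPCC777.14) had 8.47, 10.09 and 10.09 in YEPD and 8.27, 10.15 and 10.03 in YEPME, with both replicate 1 arrays far below the other 4, a difference of -1.72 ± 0.07 (limma, adjusted p = 6.38e-05). prp43 was lower in replicate 1 by a difference of -1.48 ± 0.06 (adjusted p = 5.95e-05), and cwf21 was higher by 1.30 ± 0.19 (adjusted p = 0.00242). For all 3 the shift between replicates was at least 1.30 and exceeded every difference between media in the same gene.

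By role, 5 of 7 Sm genes were lower in replicate 1 (36.0% of all genes). smd1 was higher (35.0% of all genes), by 0.45 ± 0.07 (limma, adjusted p = 0.00362). Of the 8 LSm genes 3 were higher and 3 lower, near the shares over all genes. Of the Cdc5-associated genes 10 were lower and 5 higher, of the U2 genes 4 lower and 1 higher, of the U1 genes 3 lower and 0 higher. Of the helicase and second-step genes 3 were lower and 1 higher, and of the tri-snRNP genes 2 and 1.

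**Figure D5:**
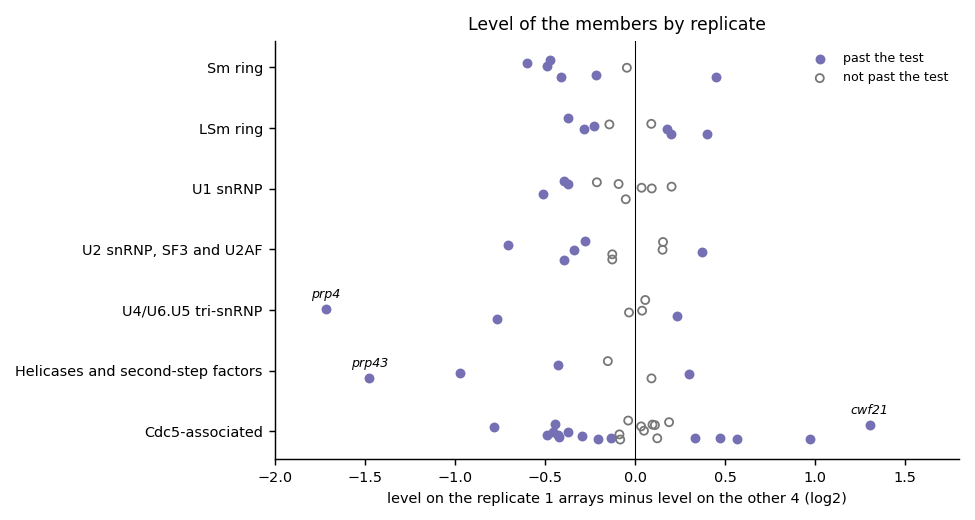
Level on the replicate 1 arrays minus level on the other 4 (horizontal axis, log2) for the 69 members by role (vertical axis, points spread within a row only for legibility); filled points passed limma. prp4 and prp43 lie at -1.72 and -1.48 and cwf21 at 1.30, and the other members lie between -0.97 and 0.97.

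Other splicing genes outside the naming rule were taken from a list, of which 31 were measured, leaving out sad1 and mud1, whose S. pombe names belong to a spindle pole body protein and a UBA domain protein. With no block 0 passed limma (0% of all genes), and with replicate 1 as a block 1 was lower (2.07% of all genes called in either direction). Within replicates 2 and 3, 1 was higher (6.91% of all genes) and 2 were lower (8.70% of all genes). The replicate number as a block there gave 2 higher (11.3% of all genes) and 4 lower (12.7% of all genes). The 2 higher were bis1 and msl1, and msl1 lay above the background limit on 0 of the 6 arrays. snu66 (SPAC167.03C), for a tri-snRNP protein, had 9.31, 9.99 and 9.94 in YEPD and 8.96, 9.60 and 9.62 in YEPME. It fell by 0.35 ± 0.04 with replicate 1 as a block (limma, adjusted p = 0.0404), the pair differences being -0.35, -0.39 and -0.32. The YEPME array was the lower in each pair, and no member of the naming rule passed that fit. rsd1 (SPAC19G12.07C), for an RNA-binding protein of the SR-like kind, fell by 0.28 ± 0.04 within replicates 2 and 3 (limma, adjusted p = 0.0135) and differed by -0.10 in replicate 1. bis1 (SPCC364.02C), the higher gene there, rose by 0.21 ± 0.03 (limma, adjusted p = 0.0170), but replicate 1 gave -0.26. The genes for the central U5 protein Spp42 and the U5 helicase Brr2 differed by -0.00, 0.02 and 0.10 and by -0.50, -0.13 and -0.05. cdc5 itself, whose product gives the cwf genes their name, differed by -0.76, -0.08 and -0.20 and did not pass with replicate 1 as a block (limma, adjusted p = 0.326). In the interaction test 11 of the 31 were called (46.4% of all genes), 3 higher in replicate 1 (19.0% of all genes) and 8 lower (27.4% of all genes), and saf1 departed by -0.93 ± 0.11 (adjusted p = 0.00451), its pair differences being -1.12, -0.16 and -0.22.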

How the data were processed

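For 6 Affymetrix arrays the log2 values used are those the authors deposited. The submitters' processing notes name RMA and Partek. The sources used here do not give versions, or say whether the 6 arrays were normalized jointly. The limit of background was higher for replicate 1, at 5.60 (YEPD) and 5.59 (YEPME), than for replicates 2 and 3, at 4.78 to 4.81. Deposited replicate 1 values also carry more decimal places. Whether replicate 1 was processed separately was not tested. The level and interaction tests set these arrays against each other. Of 10924 probe sets, 2914 have 1 S. pombe gene in the platform annotation, 2600 an S. cerevisiae gene and 213 are controls. Genes were named through RefSeq ASM294v3 by gene number, 3 by symbol alone. For a gene with several probe sets the one with the highest mean was used. Fits used limma 3.58.1 (R 4.3.3; lmFit, eBayes, two-sided, Benjamini-Hochberg over 2896 genes, called at an adjusted p under 0.05), and the code was tested on simulated data. The deviations of same-numbered arrays from their group means correlated at 0.853 (number 1), 0.835 (number 2) and 0.836 (number 3). Deviations within a medium sum to 0 and the replicate 1 arrays stand apart. The values for numbers 2 and 3 therefore cannot show whether those arrays are paired. The replicate number was also used as a block, as an alternative.

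Members, roles, lists and fits were chosen with earlier results of these data known. Values on all 6 arrays are given for up to 8 members per direction called in each test of a difference between media, for the member with the highest mean and the largest difference in each role, and for members past 0.2 in every pair. Alternatives were median centring or quantile scaling, dropping dim genes, averaging probe sets, eBayes settings, the threshold and leaving out each array. Precision is limited by having 6 arrays.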

Additional observations from a re-analysis of the deposited data

Results flagged for a closer look

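The YEPME minus YEPD difference departed between replicate 1 and replicates 2 and 3 for 24 of the 69 members by the limma interaction term. Replicate 1 is a single pair of arrays, and 46.4% of all genes gave the same call. No group of arrays was large enough for a search for outlying arrays.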

How the results depend on the processing

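The median difference of the members was -0.05 and ranged from -0.07 to -0.03 when 1 array was left out, and it was -0.03 without both replicate 1 arrays, an alternative chosen after seeing the data. With no block the count of members called was 0 under each alternative run, and the replicate block also gave 0. With replicate 1 as a block, leaving out 1 array gave 0 to 3 members; the 3 appear when a replicate 1 array is left out, since the fit then equals that within replicates 2 and 3. Within replicates 2 and 3 the count of 3 became 7 with the replicate block, 6 with trend and robust settings and 0 at an adjusted p under 0.01. Over all genes 452 became 695, 753 and 142 in the same order. The interaction count of 24 became 8 at an adjusted p under 0.01 and 8 to 31 with 1 array of replicates 2 and 3 left out; it cannot be computed without a replicate 1 array. The level count of 42 ranged from 33 to 49 with 1 array left out. Scaling, the filter on dim genes and the mean of probe sets left each of these counts within 1.5 times. sap62 and cwf15 lost their calls within replicates 2 and 3 when any 1 of the 4 arrays was left out, and prp43 when either YEPD array was. sap62 also lost its call with trend and robust settings (limma, adjusted p = 0.0659), and cwf15 with each array centred on its median (0.0599). The 3 members that passed within replicates 2 and 3, prp43, sap62 and cwf15, kept their direction under each alternative. Some members called in the interaction test did not keep it in the fit with replicate 1 as a block. Without either replicate 1 array, cwf21 went from 0.12 to -0.15 and prp3 from -0.11 to 0.07. The causes were not tested. Signal over background limits lsm8.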

Other observations

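The array also holds 34 S. cerevisiae probe sets whose symbols fit the same rule. On all 6 arrays 1 of them lay above the 95th percentile of the S. cerevisiae probe sets, and 2 did so on at least 1 array. In the RefSeq annotation 2 pairs of members are next to each other among protein-coding genes, cwf22 with cwf24 and prp11 with cwf23, and their spans do not overlap. In replicates 1, 2 and 3 the neighbours cwf22 and cwf24 differed by 0.28, -0.07 and 0.13 and by -0.17, -0.15 and -0.14.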
